A study of Mus musculus with 21 samples.

Results

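The 31 genes described here encode the enzymes of the mevalonate pathway (7 genes), of squalene and sterol ring synthesis (11), the sterol-sensing control of both (5), a sterol carrier (1) and the enzymes of fatty acid synthesis (7). They were taken by symbol from the 51201 gene IDs of the count tables. All 31 were found, and all 31 passed the filter on low counts in both cell types. They were followed in spleen cells of C57BL/6J mice at postnatal day 35, selected for CD4+ or CD8+ T cells and measured by sequencing of polyadenylated RNA. L-gp130fl/+;CD4Cre+/- mice carry a gp130 allele that signals without cytokine and is switched on by Cre. Cre runs from the Cd4 promoter, so CD8+ cells, which pass through a CD4-expressing stage in the thymus, carry the active allele as well. Control mice were CD4Cre+/- and so also carried Cre. The groups held 6 L-gp130 and 6 control libraries of CD4+ cells, and 3 L-gp130 and 6 control libraries of CD8+ cells. CD4+ cells were taken with beads against CD4, CD8+ cells by removing other cells, and red cells were lysed beforehand. The labels number the mice within each group and do not say whether the CD4 and CD8 libraries came from the same animals.

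Cells make cholesterol and fatty acids from acetyl-CoA. When sterols in the endoplasmic reticulum run low, SCAP escorts the SREBP factors, encoded by Srebf1 and Srebf2, to the Golgi, where they are cleaved and freed to enter the nucleus. INSIG proteins hold SCAP back when sterols are plentiful. SREBP2 acts mainly on sterol genes and SREBP1 mainly on fatty acid genes, and T cells are known to raise both programmes when they grow and divide.

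In L-gp130 cells, 1 gene of this set rose in both cell types: Elovl6, the elongase that extends palmitate, was 3.03-fold higher in CD4 and 2.29-fold higher in CD8 cells. Acss2, which makes acetyl-CoA from acetate, Hmgcs1, the synthase at the entry of the mevalonate pathway, and Sc5d, a late sterol desaturase, fell in both. Most of the other sterol enzymes did not pass the test in either. The promoters of these 4 genes are shown because they are the members called in the same direction in both cell types, a choice made after their values were seen. The stretches are RefSeq's, on build GRCm38.p6, 5′ to 3′ on the gene's strand, up to 250 bases before its start, without bases that an annotated exon covers. Capitals mark TCACNCCAC, the core of a sterol regulatory element that SREBP binds, CCAAT, the box of the partner factor NF-Y, and GGGCGG, the box of Sp1 and KLF factors, on either strand.
Hmgcs1, chr13:119690101-119690350, + strand: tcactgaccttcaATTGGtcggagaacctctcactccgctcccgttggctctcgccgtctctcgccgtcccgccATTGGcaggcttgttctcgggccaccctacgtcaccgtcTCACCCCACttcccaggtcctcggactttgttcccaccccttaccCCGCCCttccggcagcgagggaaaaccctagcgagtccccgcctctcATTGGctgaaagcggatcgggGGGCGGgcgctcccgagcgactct
Sc5d, chr9:42264301-42264550, - strand: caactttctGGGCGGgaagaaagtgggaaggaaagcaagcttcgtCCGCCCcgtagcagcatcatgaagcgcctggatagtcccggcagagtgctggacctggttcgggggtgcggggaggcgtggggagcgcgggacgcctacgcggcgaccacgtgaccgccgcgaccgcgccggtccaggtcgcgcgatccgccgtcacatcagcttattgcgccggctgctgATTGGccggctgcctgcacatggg
Acss2, chr2:155517793-155517947, + strand: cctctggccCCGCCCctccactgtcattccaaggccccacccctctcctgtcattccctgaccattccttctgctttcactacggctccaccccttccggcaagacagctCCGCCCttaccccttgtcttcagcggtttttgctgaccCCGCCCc
Elovl6, chr3:129532136-129532256, + strand: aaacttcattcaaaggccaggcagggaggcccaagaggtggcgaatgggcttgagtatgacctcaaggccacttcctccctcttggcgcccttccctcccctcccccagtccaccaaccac
Hmgcs1 held the sterol element core TCACCCCAC, its first base 137 bases before the start, with 3 CCAAT and 2 GGGCGG boxes around it. Sc5d had 1 CCAAT and 2 GGGCGG boxes, and Acss2 had 1 and 4 in its full 250 bases. Elovl6 had none of these letters in its window. RefSeq promoters were matched for 25 of the 31 genes, and Hmgcs1 was the only 1 of the 25 with TCACNCCAC, which 1.05% of all 32851 promoters of this length hold. CCAAT was in 20 of the 25 (80%) and in 33.8% of all promoters, and GGGCGG in 21 of the 25 (84%) and in 32.7% of all. TTCNNNGAA, the STAT letters, was in 1 of the 25 (Ebp) and in 7.02% of all. Counted per gene, as the 25 are, over the 27025 genes with a promoter in the table, the shares were 1.22% for TCACNCCAC, 37.5% for CCAAT, 35.4% for GGGCGG and 8.13% for TTCNNNGAA. These are matches of letters within a window of 250 bases, and sterol elements may lie elsewhere.

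Gene counts summed to between 17781325 and 21226374 per L-gp130 CD4 library, and control CD4 libraries were deeper, with 27855745 to 35869240, so in CD4 cells depth went with genotype. The CD8 totals ran from 17217503 to 19476944 with the allele and from 17719174 to 19286516 without it. By label 4 of 6 L-gp130 and 1 of 6 control CD4 libraries, and 2 of 3 L-gp130 and 4 of 6 control CD8 libraries, were male. In CD4 cells sex thus went with genotype, and a fit of females alone rested on 2 L-gp130 and 5 control libraries. Of the 21 libraries, 1 (control CD4 replicate 5) had reads of Xist and Ddx3y that went against its labelled sex. It was 1 of the 5 controls in the fit of females, which went by label. The summed level of 8 T cell genes was 2459 to 3378 CPM (counts scaled to the library's total) in CD4 and 3449 to 4811 in CD8 libraries. Transcripts of other cells were present in all 21 libraries. The 9 B cell genes summed to 249 to 958 CPM in CD4 libraries and 44.6 to 109 in CD8 libraries, and 8 red cell genes to 4594 to 38483 and 49.3 to 729. The 9 macrophage genes summed to 519 to 2236 CPM in CD4 libraries, with L-gp130 replicate 1 the highest, and to 292 to 799.9 in CD8 libraries. Control CD8 replicates 1 to 3 held more B cell transcripts (85.9 to 109 CPM) than replicates 4 to 6 (44.6 to 46.8). In bulk RNA, fewer cells of a type and less RNA per cell cannot be told apart.

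Levels of different genes were compared as TPM, Salmon's transcript abundance corrected for length. In control CD4 cells the highest of the 31 was Acly, which cuts citrate into acetyl-CoA, at 112 ± 7.82 TPM (SD, n = 6), followed by Srebf2 at 89.8 ± 8.53 and Srebf1 at 57.6 ± 4.40. The lowest was Hsd17b7, a sterol ketone reductase, at 3.47 ± 0.205 TPM, and next above it stood Elovl6 at 5.30 ± 0.879. Control CD8 cells had the same 3 genes on top, with Acly at 77.6 ± 7.44, Srebf2 at 54.8 ± 4.64 and Srebf1 at 52.6 ± 6.64 TPM. Their lowest was Scd1, the desaturase that makes oleate, at 0.985 ± 0.603 TPM, against 21.4 ± 10.4 in control CD4 cells. Of the 30 pairs of neighbours in this order, 27 in control CD4 and 26 in control CD8 libraries had ranges that overlapped, so most neighbouring ranks do not differ beyond their spread.

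**Figure D1:**
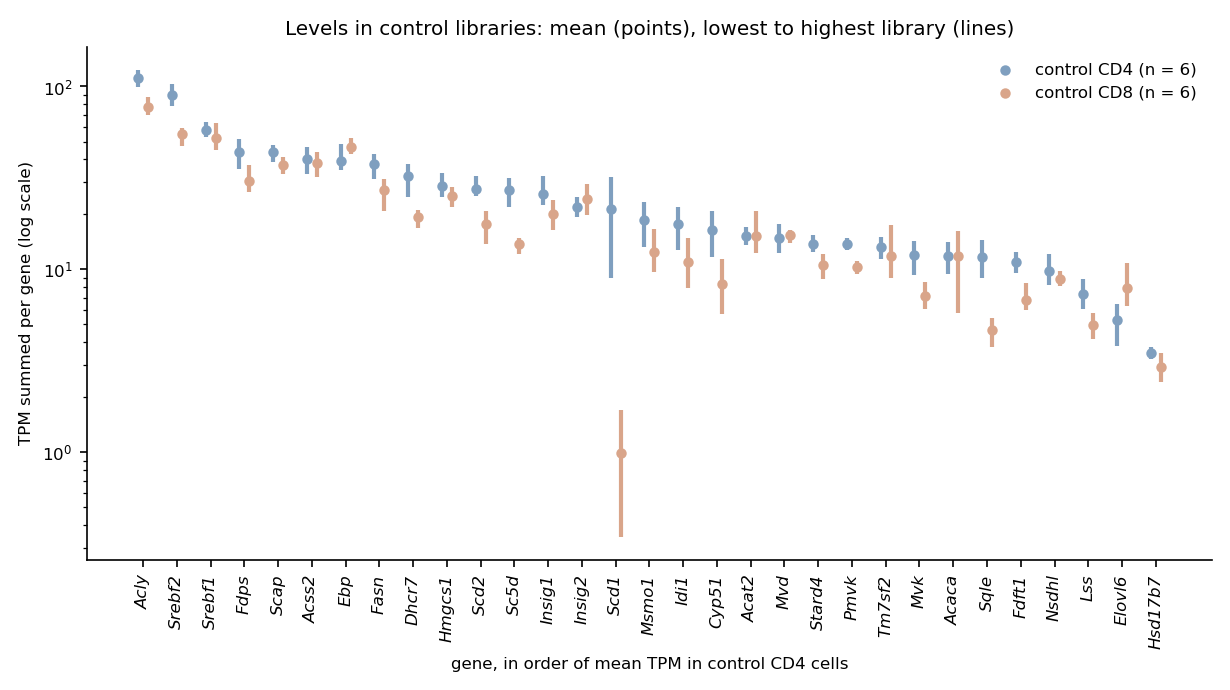
Mean TPM (points) and lowest to highest library (lines) of the 31 genes in the 6 control CD4 and 6 control CD8 libraries, on a log axis, in order of the control CD4 mean. Acly is highest in both, and Scd1 has the widest range and lies far lower in CD8 cells.

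Counts were tested with edgeR's quasi-likelihood test, with labelled sex as a covariate and Benjamini-Hochberg adjustment over all genes tested, and a gene was called at an adjusted p under 0.05. In CD4 cells 2 of the 31 genes rose, Elovl6 and Fasn, against 11.1% of the 15016 genes tested. In the same cells 5 fell, Hmgcs1, Sc5d, Insig1, Acss2 and Scd1, against 7.75% of all genes, and 24 were not called. In CD8 cells 1 rose, Elovl6, against 10.5% of 14254 genes, and 6 fell, Hmgcs1, Mvk, Msmo1, Sc5d, Insig2 and Acss2, against 10.5%. The median log2 fold change of the 31 was -0.02 in CD4 and -0.17 in CD8 cells, beside -0.01 over all genes tested in each. The counts were also 2 up and 5 down in CD4 cells without L-gp130 replicate 1 and control replicate 5. In CD8 cells they were 2 up and 7 down without control replicates 1 to 3, and 3 up and 6 down without control replicates 4 to 6. The CD4 calls changed when single libraries were left out. Without L-gp130 CD4 replicate 6, or without control CD4 replicate 1, 1 gene was still called down (Acss2) and 1 up (Elovl6), and without control CD4 replicate 4, 8 were called down. Control CD4 replicate 1 was the only control CD4 library labelled male, and L-gp130 CD4 replicate 6 was 1 of 2 labelled female. With labelled sex as covariate, the fit without control replicate 1 therefore compared the genotypes among females. Insig1, for example, was at -0.29 on the log2 scale both there and in females alone. The part of the sex imbalance in these lost calls was not tested. Without L-gp130 CD8 replicate 1 the 6 falls became 2, and without L-gp130 CD8 replicate 3 they became 3.

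**Figure D2:**
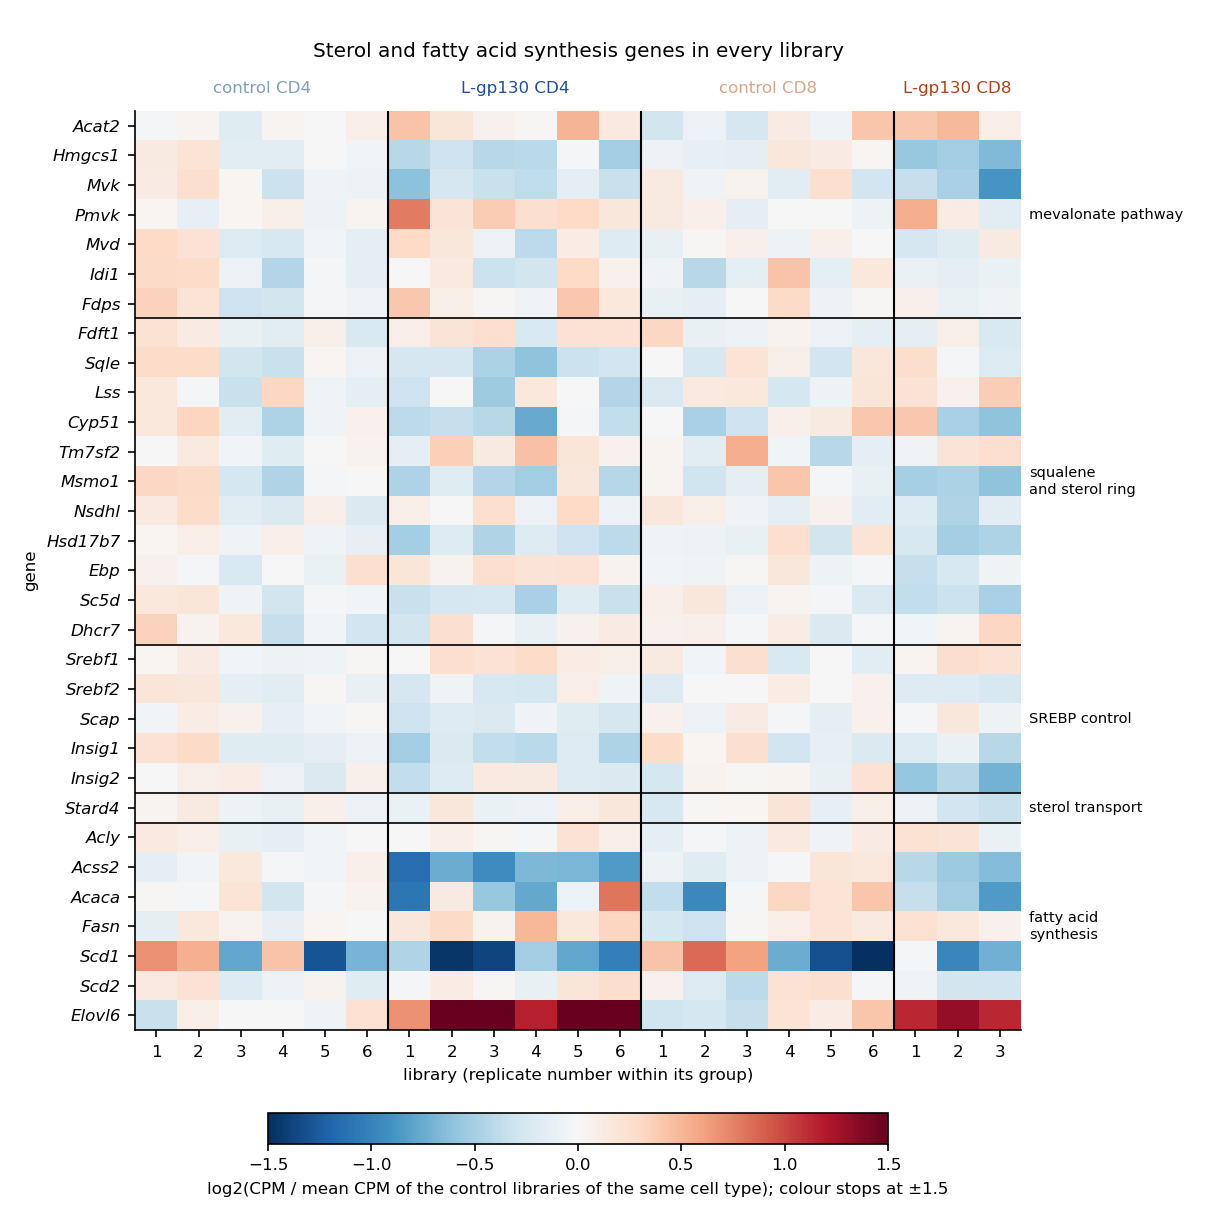
Log2 ratio of each gene's CPM in each of the 21 libraries to the mean of the control libraries of the same cell type, with genes (rows) by role and libraries (columns) by group. Elovl6 is red in every L-gp130 library and Acss2 blue in every one, while sterol enzymes vary among the controls as well.

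Of the 7 genes of the mevalonate pathway, which turns acetyl-CoA into farnesyl diphosphate, 1 fell in CD4 and 2 fell in CD8 cells, and none rose. Their median log2 fold change was -0.02 in CD4 and -0.09 in CD8 cells. Hmgcs1 (ENSMUSG00000093930, chromosome 13, 119690379 to 119708260, GRCm38) was at 43.6, 47.1, 43.8, 44.2, 57.3 and 40.5 CPM in L-gp130 CD4 replicates 1 to 6 and at 64.0, 67.1, 51.9, 52.2, 57.9 and 56.9 in controls. All L-gp130 CD4 libraries but replicate 5 lay under every control. On the log2 scale the fold change was -0.40 ± 0.10 (SE, edgeR adjusted p = 0.0166). That call ended without L-gp130 replicate 6 (adjusted p = 0.0816) or control replicate 1 (0.0969). In CD8 cells Hmgcs1 was at 34.5, 35.6 and 32.4 CPM in L-gp130 and 48.2, 46.9, 46.5, 57.5, 55.8 and 52.4 in control libraries. Here every L-gp130 library lay well under every control, and the fall was -0.58 ± 0.09 on the log2 scale (edgeR adjusted p = 0.00178), called in all 20 alternative fits.

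Mvk, the kinase that phosphorylates mevalonate, was at 7.83, 7.09 and 5.38 CPM in L-gp130 CD8 and 10.9, 9.59, 10.3, 8.85, 11.8 and 8.10 in control CD8 libraries. All 3 L-gp130 values lay under the lowest control, the nearest pair being 7.83 and 8.10. Its log2 fold change was -0.56 ± 0.16 (edgeR adjusted p = 0.0309), and 6 of 9 fits that left out a library did not call it (adjusted p 0.0504 to 0.156): those without any 1 of the 3 L-gp130 libraries or without control replicates 1, 3 or 5. In CD4 cells Mvk was at 8.15 to 11.3 against 9.99 to 14.7 CPM, ranges that overlapped, with a log2 fold change of -0.34 ± 0.13 (adjusted p = 0.0869). The other 5 enzymes, Acat2, Pmvk, Mvd, Idi1 and Fdps, were not called in either cell type, with log2 fold changes of -0.07 to 0.27 in CD4 and -0.11 to 0.34 in CD8 cells. Fdps, which makes farnesyl diphosphate, had a 95% interval of -0.17 to 0.33 in CD4 and -0.23 to 0.19 in CD8 cells on the log2 scale. Idi1, the isomerase before it, had -0.33 to 0.29 and -0.43 to 0.20.

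Of the 11 enzymes that build squalene and shape the sterol ring, 1 fell in CD4 cells and 2 in CD8 cells, and none rose. Their median log2 fold change was -0.22 in CD4 and -0.17 in CD8 cells. Sc5d (ENSMUSG00000032018, chromosome 9, 42251595 to 42264256), which sets a double bond late in the pathway, was at 37.4, 39.8, 40.1, 33.8, 41.9 and 37.6 CPM in L-gp130 CD4 libraries and 52.9, 53.6, 45.6, 39.1, 46.6 and 46.2 in controls. Control replicate 4 lay among the L-gp130 values and the other controls lay above them. The log2 fold change was -0.33 ± 0.09 (edgeR adjusted p = 0.0265). It was not called without L-gp130 replicate 6 (0.0810), without control replicate 1 (0.196) or in females alone (0.136). In CD8 cells Sc5d was at 18.4, 19.1 and 17.05 CPM in L-gp130 and 25.1, 26.9, 22.3, 24.5, 23.5 and 20.5 in control libraries. The groups did not overlap, and the log2 fold change was -0.39 ± 0.09 (edgeR adjusted p = 0.0135). That call ended without L-gp130 replicate 1 (0.0674) and without control replicates 1 to 3 (0.0625).

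Msmo1, the methyl sterol oxidase that removes methyl groups from the ring, was at 10.9, 11.04 and 10.1 CPM in L-gp130 CD8 and 15.8, 12.5, 13.9, 20.4, 15.2 and 14.2 in control CD8 libraries. All L-gp130 values lay under the controls. The log2 fold change of -0.52 ± 0.15 was called (edgeR adjusted p = 0.0335), but not without any 1 of the 3 L-gp130 libraries, without control replicates 5 or 6 (adjusted p 0.0516 to 0.122) or without control replicates 4 to 6 together (0.105). In CD4 cells Msmo1 was at 16.4 to 26.4 against 17.2 to 29.3 CPM, with a log2 fold change of -0.37 ± 0.17 (adjusted p = 0.153).

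The other 9 enzymes of this step were not called in either cell type. Sqle, the monooxygenase that opens sterol synthesis from squalene, had a log2 fold change of -0.38 ± 0.14 in CD4 (edgeR adjusted p = 0.0660) and 0.03 ± 0.16 in CD8 cells (0.906). Cyp51, the lanosterol demethylase, had -0.40 ± 0.15 (0.0913) and -0.17 ± 0.25 (0.681). Hsd17b7 was lower in every L-gp130 CD4 library, at 6.56 to 8.17 CPM, than in every control, at 8.55 to 9.96, with -0.32 ± 0.12 (edgeR adjusted p = 0.0719). In CD8 cells Hsd17b7 was at 5.67 to 6.82 against 6.69 to 9.60 CPM, with -0.40 (edgeR adjusted p = 0.123). Of 20 alternatives there, 1 called it, on Salmon's reads (-0.46, 0.0343). Lss, Tm7sf2, Nsdhl, Ebp and Dhcr7 lay between -0.22 and 0.20 in CD4 and between -0.26 and 0.22 in CD8 cells. Fdft1, the squalene synthase, had 0.11 and -0.09. It shares 774 exon bases, 18.3% of its own, with Ctsb on the other strand, which was at 397 TPM in control CD4 cells against 10.95 ± 1.19 for Fdft1. Reads of this unstranded protocol in the shared bases cannot be told apart, so its values are uncertain. Tm7sf2 shares 532 exon bases with Vps51 on the same strand.

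The 18 enzymes of sterol synthesis as a group differed among libraries of 1 genotype. Relative to the control mean of each gene, they averaged 0.17 and 0.15 on the log2 scale in control CD4 replicates 1 and 2, and -0.02 to -0.18 in control replicates 3 to 6. L-gp130 CD4 replicate 5 averaged 0.10 and the other 5 L-gp130 CD4 libraries -0.01 to -0.19. L-gp130 CD4 replicate 5 was the highest of its group for 8 of the 18 genes, and control replicates 1 and 2 between them for 13. The 2 genotypes overlapped in CD4 cells. In CD8 cells the 3 L-gp130 libraries averaged -0.07 to -0.19 and the 6 controls -0.09 to 0.09, which overlapped as well. Control CD4 replicates 1 and 2 had summed B cell levels of 958 and 783 CPM, but replicate 4, the lowest control for the sterol enzymes, had 857, and the other 3 had 258 to 430.1. The part of those cells in the sterol values was not tested.

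**Figure D3:**
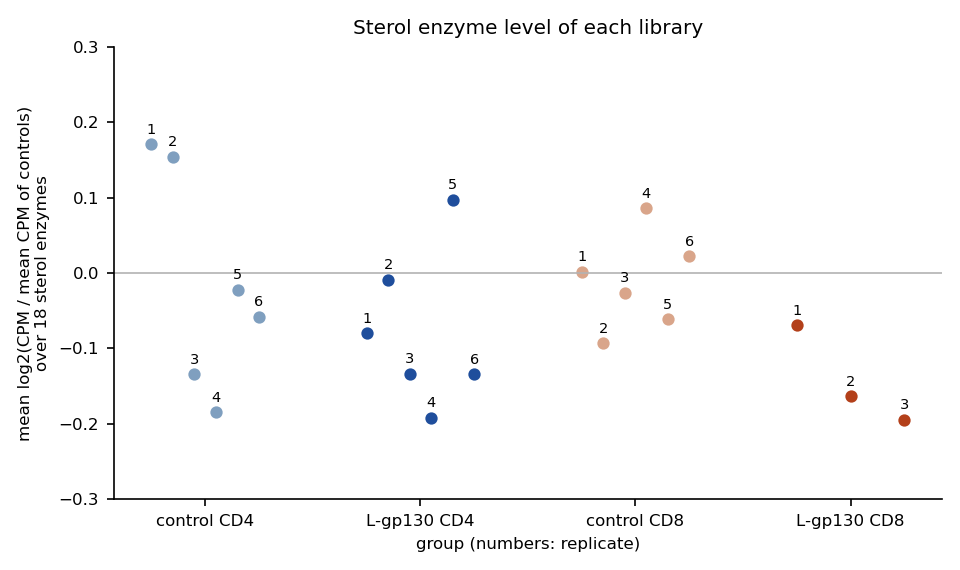
Mean log2 ratio of 18 sterol enzymes to their control mean, one point per library with its replicate number, for the 4 groups. Control CD4 replicates 1 and 2 (0.17 and 0.15) and L-gp130 CD4 replicate 5 (0.10) lie highest, and the genotypes overlap in both cell types.

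Of the 5 genes of SREBP control, Insig1 fell in CD4 cells and Insig2 fell in CD8 cells, and neither SREBP gene nor Scap was called. Insig1 (ENSMUSG00000045294, chromosome 5, 28071363 to 28078662), itself a known SREBP target, was at 30.0, 36.9, 33.3, 32.5, 37.3 and 31.1 CPM in L-gp130 CD4 libraries and 49.8, 52.4, 37.8, 37.9, 39.0 and 40.5 in controls. Every L-gp130 value lay under every control, by less than 1 CPM at the nearest, and control replicates 1 and 2 stood above the rest. The log2 fold change was -0.40 ± 0.11 (edgeR adjusted p = 0.0270), not called without L-gp130 replicate 6 (0.0990), without control replicate 1 (0.217), in females alone (0.184) or at equal depth (0.0533). In CD8 cells Insig1 was at 28.6, 30.8 and 24.7 CPM in L-gp130 and 39.9, 33.6, 39.0, 27.1, 30.2 and 28.3 in control libraries. Control replicates 1 to 3 were high and 4 to 6 lay among the L-gp130 values, and the log2 fold change of -0.24 ± 0.14 was not called (adjusted p = 0.265).

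Insig2 (ENSMUSG00000003721, chromosome 1, 121304353 to 121332589) was at 12.2, 13.7 and 11.2 CPM in L-gp130 CD8 libraries and 15.3, 19.0, 18.6, 18.8, 17.01 and 21.4 in controls. The groups did not overlap. Insig2 changed by -0.56 ± 0.13 on the log2 scale (edgeR adjusted p = 0.0123), but on Salmon's reads summed per gene it was -0.21 (adjusted p = 0.175). Of the 2 leading Insig2 transcripts, the first averaged 6.22 ± 0.681 TPM in L-gp130 and 6.17 ± 0.857 in control CD8 libraries, the second 1.37 ± 2.37 and 8.35 ± 4.97. The call also ended without L-gp130 CD8 replicate 1 (0.0550) or replicate 3 (0.0901). In CD4 cells Insig2 was at 17.3, 19.4, 24.7, 24.5, 19.3 and 19.3 CPM in L-gp130 and 22.3, 23.8, 24.2, 20.97, 19.2 and 23.6 in control libraries, which overlapped, with -0.15 ± 0.12 on the log2 scale (adjusted p = 0.397).

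Srebf1 (ENSMUSG00000020538, chromosome 11, 60199089 to 60222581) was at 119, 141, 138, 144, 128 and 126 CPM in L-gp130 CD4 libraries and 121, 129, 116, 112, 114 and 119.8 in controls. The ranges overlapped, and the log2 fold change was 0.16 ± 0.07 (edgeR adjusted p = 0.129, 95% interval 0.02 to 0.30). In CD8 cells it was at 133, 155 and 149.7 against 142, 125, 153, 109.99, 129.7 and 115 CPM, with 0.18 ± 0.10 (adjusted p = 0.254). Control CD8 replicates 1 and 3 lay among the L-gp130 values.

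Srebf2 (ENSMUSG00000022463, chromosome 15, 82147181 to 82205379) was at 258, 295, 259.9, 256, 329 and 292 CPM in L-gp130 CD4 and 346, 345, 277, 273, 310.1 and 283 in control CD4 libraries. L-gp130 replicate 5 again stood among the higher controls, and the log2 fold change was -0.13 ± 0.10 (edgeR adjusted p = 0.368). In CD8 cells Srebf2 was at 195, 196 and 189 against 195, 223, 221, 240.1, 224 and 234 CPM, where control replicate 1 lay among the L-gp130 values, with -0.21 ± 0.07 (adjusted p = 0.0693). The 95% intervals were -0.33 to 0.06 and -0.35 to -0.06. Scap was at 93.1, 101, 99.6, 111, 102 and 96.9 CPM in L-gp130 CD4 libraries and 112, 125, 120.4, 106, 113 and 116 in controls, with L-gp130 replicate 4 among the controls and the rest below them. It came near the threshold in CD4 cells at -0.20 ± 0.07 (edgeR adjusted p = 0.0558). In CD8 cells Scap was at 115, 131 and 109.96 against 121, 109, 127, 114, 105 and 122 CPM, with 0.03 ± 0.08 (adjusted p = 0.819).

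Stard4, which carries sterol between membranes, was not called, at 37.2 to 44.9 CPM in L-gp130 CD4 and 36.7 to 43.7 in control CD4 libraries (0.08 ± 0.08, edgeR adjusted p = 0.504). In CD8 cells it was at 23.9 to 28.3 against 25.5 to 34.4 CPM (-0.23 ± 0.11, adjusted p = 0.165).

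Of the 7 genes of fatty acid synthesis, Elovl6 rose in both cell types and Acss2 fell in both, and Fasn rose and Scd1 fell in CD4 cells. Elovl6 (ENSMUSG00000041220, chromosome 3, 129532355 to 129638495) was at 30.4, 65.6, 54.0, 42.3, 53.3 and 54.4 CPM in L-gp130 CD4 replicates 1 to 6 and at 15.0, 20.2, 19.0, 18.9, 18.3 and 22.1 in controls. The lowest L-gp130 library, replicate 1, still lay above the highest control. On the log2 scale Elovl6 rose by 1.60 ± 0.14 (edgeR adjusted p = 1.73e-05). In CD8 cells Elovl6 was at 62.2, 70.9 and 62.5 CPM in L-gp130 and 23.1, 23.8, 22.4, 32.7, 30.8 and 38.0 in control libraries. The 3 L-gp130 libraries lay far above the 6 controls, among which replicates 4 to 6 were higher than 1 to 3. The log2 fold change was 1.20 ± 0.16 (edgeR adjusted p = 0.00107). It was called in all 24 alternative fits in CD4 cells, from 1.34 to 1.65, and in all 20 in CD8 cells, from 0.95 to 1.498. Its leading annotated transcript averaged 10.2 ± 1.88 TPM in L-gp130 and 4.61 ± 0.644 in control CD4 cells, and 13.3 ± 0.225 and 5.66 ± 0.887 in CD8 cells. The 15 cell cycle genes followed as context rose as well, 15 of 15 in CD4 and 14 of 15 in CD8 cells. Their summed levels were 1356 to 3446 CPM in L-gp130 and 824 to 1462 in control CD4 libraries. In CD8 cells the sums were 1676 to 1979 CPM in L-gp130 and 956 to 1360 in control libraries. By L-gp130 CD4 replicate 1 to 6 the cell cycle sums were 2769, 1809, 2335, 1356, 2072 and 3446 CPM. The libraries did not rank alike in these sums and in Elovl6. Replicate 2, highest in Elovl6, had a sum of 1809 CPM, and replicate 1, lowest in Elovl6, had 2769. Replicate 4, lowest in the sum, was next to lowest in Elovl6. Replicate 1, lowest in Elovl6, also had the highest macrophage sum (2236 CPM) and the lowest T cell sum (2459). Plasma cell genes moved with genotype too, with 3 of 5 tested called up in CD4 cells and sums of 160 to 274 CPM in L-gp130 against 93.5 to 140 in control libraries, which did not overlap. In CD8 cells 1 of 6 plasma cell genes was called up, and the sums had medians of 249 CPM in L-gp130 and 107 in control libraries. The part of dividing cells, plasma cells or macrophages in the rise of Elovl6 was not tested.

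Acss2 (ENSMUSG00000027605, chromosome 2, 155517948 to 155585724) was at 31.6, 41.5, 36.3, 43.6, 43.5 and 38.7 CPM in L-gp130 CD4 libraries and 63.4, 67.6, 77.6, 68.5, 68.1 and 73.6 in controls. The highest L-gp130 value lay far under the lowest control. Acss2 changed by -0.78 ± 0.10 on the log2 scale (edgeR adjusted p = 0.000173). In CD8 cells Acss2 was at 58.7, 53.9 and 49.8 CPM in L-gp130 and 74.2, 69.1, 74.0, 76.9, 88.7 and 87.8 in control libraries. These groups did not overlap either, and the fall was -0.53 ± 0.10 on the log2 scale (edgeR adjusted p = 0.00436). All 24 alternatives in CD4 and all 20 in CD8 cells called it, from -0.88 to -0.75 and from -0.64 to -0.42. Its leading transcript averaged 15.3 ± 2.59 against 30.7 ± 2.84 TPM in CD4 and 19.5 ± 1.36 against 29.5 ± 3.94 in CD8 cells. Acss2 shares 395 exon bases with Gss, 197 with Ggt7 and 335 with Acss2os, all on the other strand and at 9.29, 5.26 and 0.0665 TPM in control CD4 cells against 40.3 ± 4.75 for Acss2. Acly, which makes acetyl-CoA from citrate instead, was not called, with a 95% interval of -0.09 to 0.20 in CD4 and -0.07 to 0.29 in CD8 cells.

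**Figure D4:**
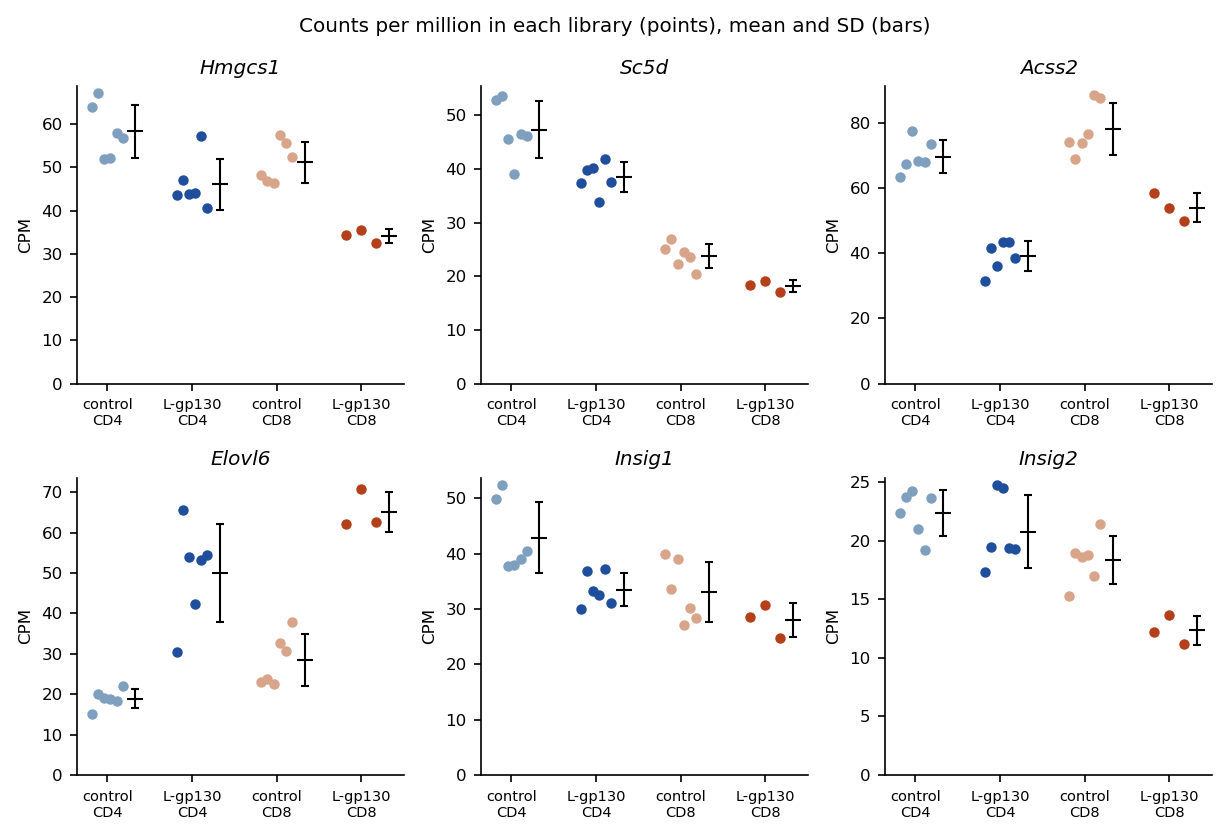
CPM of 6 genes in every library (points) with the group mean and SD (black), for control and L-gp130 CD4 and CD8 cells, on axes that start at 0. Acss2 and Elovl6 separate the genotypes in both cell types, Insig1 in CD4 cells, and Hmgcs1, Sc5d and Insig2 in CD8 cells.

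Fasn, the fatty acid synthase, was at 226, 246, 209, 283, 224 and 252 CPM in L-gp130 CD4 libraries and 183, 224, 209, 185, 205 and 200.3 in controls. The groups overlapped between 209 and 224 CPM, where L-gp130 replicates 3 and 5 and control replicates 2 and 3 lay. The rise was 0.31 ± 0.09 on the log2 scale (edgeR adjusted p = 0.0248), and 5 of 12 fits that left out a library did not call it (adjusted p 0.0504 to 0.126), namely when L-gp130 replicate 6 or control replicate 1, 3, 4 or 6 was removed. In CD8 cells Fasn was at 237, 227 and 212 CPM in L-gp130 and 169, 164, 206, 218, 234 and 225 in control libraries. Control replicates 4 to 6 lay among the L-gp130 values and 1 to 3 below them, and the log2 fold change of 0.15 ± 0.12 was not called (adjusted p = 0.381).

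Scd1 was at 46.0, 22.8, 24.2, 43.7, 36.5 and 30.7 CPM in L-gp130 CD4 libraries and 101, 90.6, 36.4, 84.2, 25.5 and 38.5 in controls. Control replicates 1, 2 and 4 stood above all other libraries, and control replicates 3, 5 and 6 lay within the L-gp130 range. The log2 fold change of -1.18 ± 0.36 passed the test (edgeR adjusted p = 0.0417), but only 9 of 24 alternatives called it. Of the 12 fits that left out a library 8 did not (adjusted p 0.0525 to 0.215), when any L-gp130 library but replicate 4, or control replicate 1, 2 or 4, was removed. The same 3 control libraries were the highest in B cell transcripts, at 958, 783 and 857 CPM summed over 9 genes, against 249 to 625 in the other CD4 libraries. They also had macrophage sums of 1358, 1146 and 1104 CPM, against 519 to 992 in the others except L-gp130 replicate 1 (2236). Of the 9 B cell genes 4 fell in CD4 cells, and of the 9 macrophage genes none was called. The part of either in Scd1 was not tested. In CD8 cells Scd1 was near the bottom, at 3.33, 1.72 and 2.06 CPM in L-gp130 and 4.55, 6.08, 5.13, 2.03, 1.36 and 1.16 in control libraries. Control replicates 1 to 3 lay above the L-gp130 values and 4 to 6 among or below them, so its direction turned with the controls used, from -0.52 ± 0.56 (adjusted p = 0.549) to 0.66 without control replicates 1 to 3.

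Scd2, the related desaturase, was at 101 to 131 CPM in L-gp130 CD4 and 95.6 to 126 in control CD4 libraries and was not called in either cell type (0.10 ± 0.10 in CD4, -0.20 ± 0.12 in CD8). Acaca, the carboxylase that makes malonyl-CoA, ranged from 21.5 to 79.2 CPM in L-gp130 CD4 libraries, wider than the 37.6 to 52.5 of controls. Its log2 fold change was 0.09 ± 0.23 in CD4 (edgeR adjusted p = 0.806) and -0.55 ± 0.29 in CD8 cells (0.207), with 95% intervals of -0.35 to 0.54 and -1.11 to 0.01, both of which hold 0. Control CD8 replicates 1 to 3 were at 39.8, 26.1 and 50.2 CPM and 4 to 6 at 63.8, 59.2 and 68.7. The CD8 value ran from -0.88 to -0.12 over 20 alternatives, of which 2 called it. These were the fits without control replicates 1 to 3 (-0.88, edgeR adjusted p = 0.00237) and without control replicate 2 (-0.70, 0.0329).

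None of the 31 genes had an effect of L-gp130 that differed between CD4 and CD8 cells, against 3.46% of the 15758 genes tested over all 21 libraries. At an unadjusted p under 0.05 there were 2, and DESeq2 and limma-voom also called none. Acss2 had the smaller p of them, with a CD4 effect minus CD8 effect of -0.30 ± 0.13 on the log2 scale (edgeR adjusted p = 0.223), and Stard4 had 0.25 ± 0.11 (0.247). These differences came from 1 fit of all 21 libraries on Salmon's reads, with 1 sex term for both cell types. They are therefore not the gaps between the separate fold changes given above, such as 1.60 and 1.20 for Elovl6. For Elovl6 the difference was 0.17 ± 0.15 (95% interval -0.12 to 0.47) and for Hmgcs1 0.11 ± 0.12 (-0.13 to 0.35). For Insig1, called in CD4 cells alone, it was -0.04 ± 0.16 (-0.34 to 0.27), and for Insig2, called in CD8 cells alone, 0.23 ± 0.12 (-0.01 to 0.47). The interval of Scd1, -1.86 to 0.85, holds differences of either sign. The calls made in 1 cell type are therefore not shown to differ from the other.

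**Figure D5:**
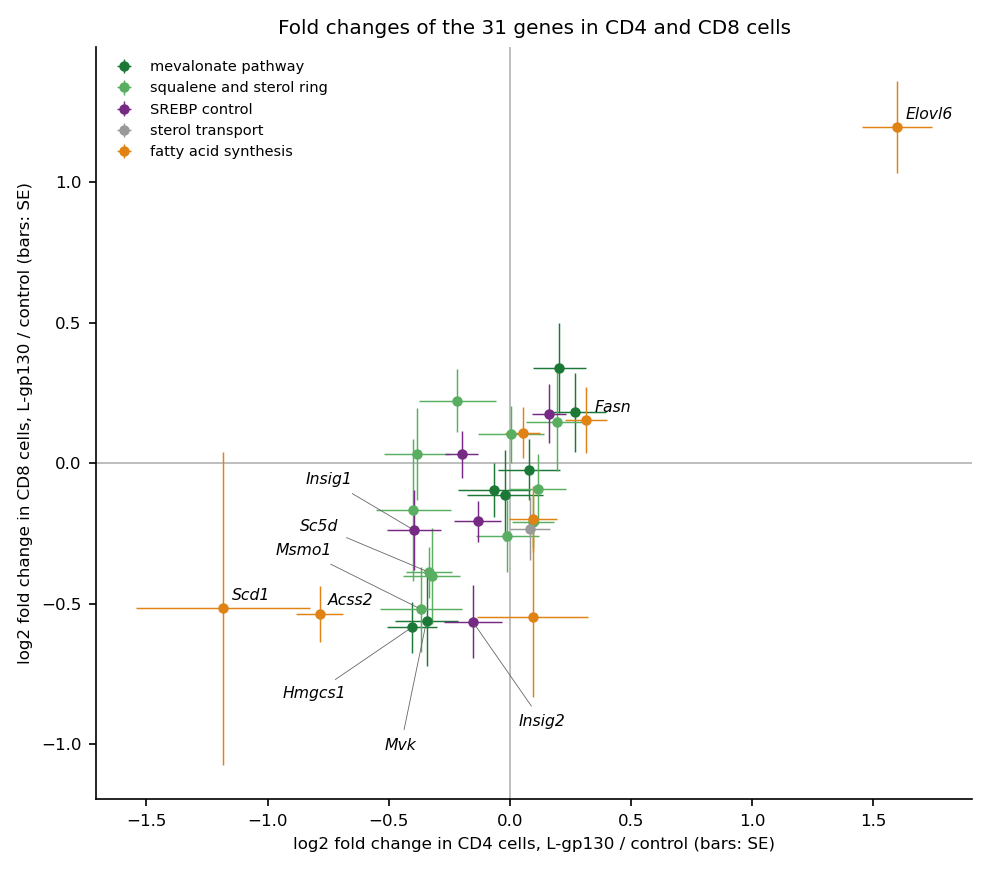
Log2 fold change of the 31 genes in CD4 cells (horizontal) against CD8 cells (vertical), with SE bars and colours by role, and genes called in either cell type named. Elovl6 stands alone at the upper right (1.60 and 1.20), and Scd1 (-1.18 and -0.52), Acss2 and Hmgcs1 lie at the lower left.

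Without the allele, the 2 cell types already differed in these genes. Between control CD4 and control CD8 cells, 14 of the 31 were higher in CD4 cells, against 24.3% of all 15758 genes, and 6 were higher in CD8 cells, against 27.2%. The median log2 difference was 0.16, beside -0.02 over all genes. The 14 were Mvk, Idi1, Fdft1, Sqle, Cyp51, Msmo1, Sc5d, Dhcr7, Srebf2, Insig1, Insig2, Stard4, Scd1 and Scd2, and the 6 were Acat2, Mvd, Srebf1, Scap, Acss2 and Elovl6. Some of these calls were weak. Acat2 and Mvk were each called in 18 of 30 alternatives, and Acat2 went from -0.28 to -0.12 (edgeR adjusted p = 0.348) without control CD8 replicate 6. Its call also ended without control CD4 replicates 1, 3, 4 or 5 or control CD8 replicate 4 (0.0520 to 0.0834). That of Mvk ended without any control CD4 library but replicate 4, without control CD8 replicates 2, 3, 4 or 6, or without L-gp130 CD8 replicate 3 (0.0512 to 0.117). Acss2 and Scap were called in 26 of 30. The calls of Acss2 (0.0877 and 0.0880) and Insig1 (0.131 and 0.0668) ended without control CD4 replicate 1 or control CD8 replicate 6, and those of Dhcr7 (0.0536) and Stard4 (0.0583) without control CD4 replicate 1. In this fit of all 21 libraries on Salmon's reads, whose CPM differ somewhat from those of the separate tables, Sc5d was at 49.1, 48.2, 43.4, 40.7, 45.0 and 45.0 CPM in control CD4 and 24.1, 24.4, 24.1, 24.9, 25.0 and 22.8 in control CD8 libraries. The ranges lay far apart, and the difference was 0.93 ± 0.05 on the log2 scale (edgeR adjusted p = 1.51e-11). Sqle was at 18.4 to 28.6 against 9.05 to 12.5 CPM (1.09 ± 0.13, adjusted p = 5.64e-07) and Cyp51 at 27.5 to 50.0 against 17.01 to 25.9 (0.90 ± 0.16, 0.000115). Elovl6 was higher in CD8 cells, at 23.7 to 34.0 against 15.4 to 20.96 CPM (-0.69 ± 0.10, edgeR adjusted p = 9.39e-06). Srebf1 was likewise higher in CD8 cells, at 128 to 146 against 101 to 127 (-0.26 ± 0.05, 0.000430). In TPM, which were not TMM-scaled, Srebf1 stood the other way, at 57.6 ± 4.40 and 52.6 ± 6.64 in control CD4 and CD8 cells. The means of Acss2 (40.3 ± 4.75 and 38.2 ± 4.67), Scap (43.8 ± 4.24 and 37.1 ± 3.28), Insig2 (21.99 ± 2.55 and 24.3 ± 3.10) and Acat2 (15.20 and 15.17) also turned between the scales, so the direction of these 5 depends on the scale. Scd1 was at 26.2 to 97.5 CPM in control CD4 and 1.20 to 6.57 in control CD8 libraries (4.20 ± 0.45, edgeR adjusted p = 4.4e-07). Beside these differences, 9 of 9 B cell, 8 of 9 macrophage and 7 of 8 red cell genes were also higher in the control CD4 libraries. The bead selection differed between the cell types, so cell type and selection cannot be told apart.

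Other lipid genes were followed by lists. Of 13 tested genes of sterol export, storage and oxysterol response, 6 fell and 0 rose in CD4 cells, and 6 fell and 1 rose in CD8 cells, with median log2 fold changes of -0.26 and -0.36. Over all genes 7.75% fell and 11.1% rose in CD4 cells, and 10.5% each way in CD8 cells. Abca1, which pumps cholesterol out of the cell, had a log2 fold change of -1.13 ± 0.15 in CD4 cells (edgeR adjusted p = 0.000283), from 51.2 ± 9.06 to 22.6 ± 3.49 CPM (SD, n = 6 each). Mylip, a ligase that degrades lipoprotein receptors and a target of the oxysterol receptors, had -0.76 ± 0.10 (0.000283), and Abcg1, a second exporter, -0.44 ± 0.08 (0.00228). In CD8 cells Lipa, the lysosomal lipase, had -0.66 ± 0.10 (edgeR adjusted p = 0.00133) and Npc2, a lysosomal sterol carrier, -0.39 ± 0.07 (0.00262). Soat2, which esterifies cholesterol, rose by 1.58 ± 0.14 (5.76e-05), from 4.49 ± 0.366 (n = 6) to 13.4 ± 2.05 CPM (n = 3). Abca1, Abcg1, Mylip, Lipa and Rxra fell in both cell types. In CD8 cells the call of Abca1 ended without any 1 of the 3 L-gp130 libraries or without control replicates 4 or 6 (adjusted p 0.0649 to 0.145), that of Mylip with L-gp130 replicate 1 or 2 or control replicate 2 removed (0.0515 to 0.139), and that of Rxra without L-gp130 replicates 1 or 2 (0.0958 to 0.117). In CD4 cells that of Rxra ended with L-gp130 replicate 2 or 6 or control replicate 1 removed (0.0501 to 0.0717). The macrophage genes C1qa, C1qb, C1qc and Vcam1, 4 of 8 tested, also fell in CD8 cells, and the part of such cells in these falls was not tested.

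Of the 9 genes that process SREBP or degrade sterol sensors, 0 were called in CD4 cells, and Mbtps1, the first SREBP protease (log2 -0.26), and Rnf139 (-0.37), a ubiquitin ligase, fell in CD8 cells. In CD4 cells 0 of the 9 had an unadjusted p under 0.05 by edgeR. Of the 14 genes of the isoprenoid branch, Rabggtb, a subunit of the Rab prenyltransferase, rose in CD4 (0.32) and CD8 cells (0.52), Rabggta fell in CD4 cells (-0.28) and Pdss1, which makes the tail of coenzyme Q, rose in CD8 cells (0.75). Of 19 other genes of fatty acid elongation, desaturation and activation, 1 rose (Fads1, a desaturase) and 4 fell in CD4 cells, and of 18 tested in CD8 cells 3 rose and 2 fell. Elovl7, an elongase related to Elovl6, went the other way from it, from 3.91 ± 0.812 to 0.7002 ± 0.367 CPM in CD4 cells (-2.51 ± 0.34, edgeR adjusted p = 0.000311) and from 11.9 ± 2.72 to 6.91 ± 1.06 in CD8 cells (-0.78 ± 0.21, 0.0252). Without L-gp130 CD4 replicate 6 the CD4 value was -3.25. In CD8 cells Fads2, the other front-end desaturase, rose by 1.498 ± 0.34 (0.0115), from 1.98 to 4.25 CPM in controls to 14.5, 6.79 and 5.03 in L-gp130 replicates 1 to 3. When L-gp130 replicate 1 was removed the value was 0.97 and was not called (edgeR adjusted p = 0.0857). Of 15 genes of fatty acid oxidation 0 were called in CD4 cells, where 4 had an unadjusted p under 0.05 by edgeR, and Etfb (0.45) and Acadl (0.28) rose in CD8 cells. The calls of Mbtps1, Rnf139, Rabggtb, Pdss1, Etfb and Acadl in CD8 cells each ended without L-gp130 CD8 replicate 1 and without at least 1 other library (adjusted p 0.0527 to 0.167). Elovl7 in CD8 cells was not called without any 1 of the 3 L-gp130 libraries (0.0645 to 0.146). In CD4 cells those of Rabggtb, Rabggta and Fads1 each ended without L-gp130 CD4 replicate 6 and without control CD4 replicate 1 (0.0526 to 0.239 over all libraries whose removal ended them).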

How the data were processed

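Per the submitters' processing notes, Trimmomatic 0.39, cutadapt 3.4, Salmon 1.5.2 and edgeR 3.34.1 were used on build GRCm38. Their roles are not stated, and the annotation release was not given in the sources used here. For each cell type the authors deposited 1 table of estimated gene counts and, per the file headers, Salmon's estimated counts and TPM per transcript for each library. Libraries were unstranded and polyA-selected, per the labels' protocols.

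Rounded gene counts went into edgeR 4.0.16 (R 4.3.3; filterByExpr, TMM scaling, a robust 2-sided quasi-likelihood F test with labelled sex as covariate, Benjamini-Hochberg adjustment over all genes tested), CD4 and CD8 libraries separately. CPM were scaled by TMM. An SE is the log2 fold change divided by the root of F. The difference between cell types, and control CD4 against control CD8, came from 1 fit of all 21 libraries on Salmon's reads summed per gene. The gene tables, made per cell type, may have been scaled separately, and whether they were was not tested. TPM were summed per gene. Symbols and positions came from GENCODE mouse release M21, which named 51115 of 51201 gene IDs; 694 transcripts without a gene held 0.144% to 0.209% of reads. No 2 libraries of a group were near-identical (lowest chi-square per gene 2.58). The fits were tested on simulated data.

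The members and lists were chosen with earlier results of these data known. Values in every library are given for members called in CD4 or CD8 cells and for Srebf1, Srebf2, Scap, Insig1 and Insig2; between control CD4 and CD8 cells up to 6 members with the smallest adjusted p were named, and from each other pathway list up to 3 called genes per cell type, others being named after their values were seen. Alternatives were RLE size factors, other filters, no sex covariate or sex read from Xist and Ddx3y, a replicate block, DESeq2 1.42.0, limma-voom (limma 3.58.1), an adjusted p under 0.01, Salmon reads, equal depth, females alone, and libraries left out.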

Additional observations from a re-analysis of the deposited data

Results flagged for a closer look

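In 3 of 93 sets of 6 libraries (31 genes in 3 groups) 1 library lay far from the other 5, where chance gives about 1 in 20. Pmvk was highest in L-gp130 CD4 replicate 1, at 17.8 CPM against 11.7 to 13.5. Fdft1 was lowest in L-gp130 CD4 replicate 4, at 19.1 CPM against 23.97 to 26.6. Fdps was highest in control CD8 replicate 4, at 37.0 CPM against 27.5 to 30.6. Among the other lipid genes, the effect of L-gp130 on Elovl7 differed between CD4 and CD8 cells by -1.83 on the log2 scale (edgeR adjusted p = 0.00663), and that on Me1, the malic enzyme, by -5.83 (0.0280). Me1 was at 0 CPM in every control CD8 library and at most 0.370 in L-gp130 CD8 libraries, so its fitted value depends on the prior count and bounds nothing, and its call ended without L-gp130 CD8 replicate 1 (-3.62, adjusted p = 0.402).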

How the results depend on the processing

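Elovl6 and Acss2 were called in the same direction in both cell types under every alternative fit, and Hmgcs1 in CD8 cells likewise. In CD4 cells the 2 genes called up became 3 without the sex covariate (Pmvk, 0.36, adjusted p = 0.0269), 1 with the replicate block and at an adjusted p under 0.01, and 1 to 2 with a library left out (1 without L-gp130 replicate 6 or control replicates 1, 3, 4 or 6). The 5 called down became 8 without the sex covariate, 1 at an adjusted p under 0.01, 2 in females alone, and 1 to 8 with a library left out (1 without L-gp130 replicate 6 or control replicate 1, 8 without control replicate 4). With sex read from Xist and Ddx3y, the CD4 call of Scd1 ended (-0.98, edgeR adjusted p = 0.0947). Hsd17b7 (-0.32, 0.0484) and Scap (-0.19, 0.0416) were then called down. In CD8 cells the 1 called up became 2 with the replicate block, 2 without control replicates 1 to 3, 3 without control replicates 4 to 6, and 1 to 2 with a library left out (2 without control replicate 6). The 6 called down became 2 at an adjusted p under 0.01, and 2 to 7 with a library left out (2 without L-gp130 replicate 1, 3 without L-gp130 replicate 3). The 6 genes higher in control CD8 than control CD4 cells became 3 (losing Acat2, Acss2 and Scap) with RLE size factors, with no filter on low counts and at an adjusted p under 0.01, while the 14 higher in CD4 cells ranged from 10 to 15. Fasn in CD8 cells reversed to -0.005 (adjusted p = 0.965) and Scd1 in CD8 cells to 0.66 (0.245) without control replicates 1 to 3. The causes were not tested.

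No sign was seen that the replicate numbers pair L-gp130 with control libraries, though so few pairs cannot exclude it. The correlation of same-numbered deviations was -0.205 to 0.151 in CD4 and -0.056 to 0.178 in CD8 cells. A library matched its own number best in 1 of 6 CD4 and 1 of 3 CD8 pairs. With the replicate block, 1 gene was called up and 7 down in CD4 cells, and 2 up and 6 down in CD8 cells. Replicates 4 to 6 of the CD8 libraries exist among controls alone, so under the block they added nothing to the genotype comparison. The CD8 fit with the block was thus close to that without control replicates 4 to 6, as for Insig1 (-0.42 in both). Low counts limit the values of Scd1 in CD8 cells, Elovl7 in CD4 cells and Me1.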
